A study of Mus musculus with 4 samples.

Results

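*Foxp3* and the 8 genes listed with it as its neighbours on chromosome X were examined in RNA-seq counts from splenic CD4+ T cells. These are *Ppp1r3f*, *Ccdc22*, *Cacna1f*, *Syp*, *Prickle3*, *Plp2*, *Gpkow* and *Wdr45*, chosen by position and matched by gene symbol, so 9 of 55367 genes in each table. The question was whether a difference at *Foxp3* was shared by the genes around it. There were 4 libraries, 2 labelled WT and 2 labelled *Satb1* conditional knockout (cKO), all of strain C57BL/6 and all from sorted peripheral CD4+ T cells of the spleen with no treatment.

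The series describes the knockout mice as Satb1 F/F; ThPOK-cre, in which Cre acts from CD4 lineage commitment onward in the whole CD4+ compartment, so conventional and regulatory T (Treg) cells are mixed in each library. The labels give no age or sex for the mice and do not say whether the WT mice carry floxed *Satb1* or Cre, nor whether each library is a separate animal. The study calls its libraries of these cells biological replicates and describes its mice as of mixed sex. The p-values measure the spread between these libraries.

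FoxP3 is the transcription factor that defines Treg cells, and in conventional CD4+ T cells its gene is largely silent. SATB1 is a nuclear protein that prefers AT-rich DNA and folds chromatin, and it is known to act on the *Foxp3* locus, through enhancers that lie within and near the gene. The genes around *Foxp3* have unrelated jobs. Because the block lies on X, 1 copy is silenced by X inactivation in each female cell.

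On the GRCm38 assembly (mm10) *Foxp3* (ENSMUSG00000039521.13) runs from 7573644 to 7595245 on the plus strand of chromosome X. It is not clear of its neighbours. Exons of *Ppp1r3f* (7557296 to 7574283, minus strand) share 266 bases with annotated *Foxp3* exons at the left end, and exons of *Ccdc22* (7593809 to 7605517, minus strand) share 590 bases with them at the right end. Further right come *Cacna1f* (7607083 to 7635196) and *Syp* (7638471 to 7653256), both on the plus strand, and then *Prickle3* (7657260 to 7668186, plus strand) and *Plp2* (7667941 to 7671390, minus strand), which overlap tail to tail by 246 exonic bases. *Gpkow* (7697131 to 7710262) and *Wdr45* (7714333 to 7728206) close the block on the plus strand, 101886 and 119088 bases past the end of *Foxp3*.

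**Figure D1:**
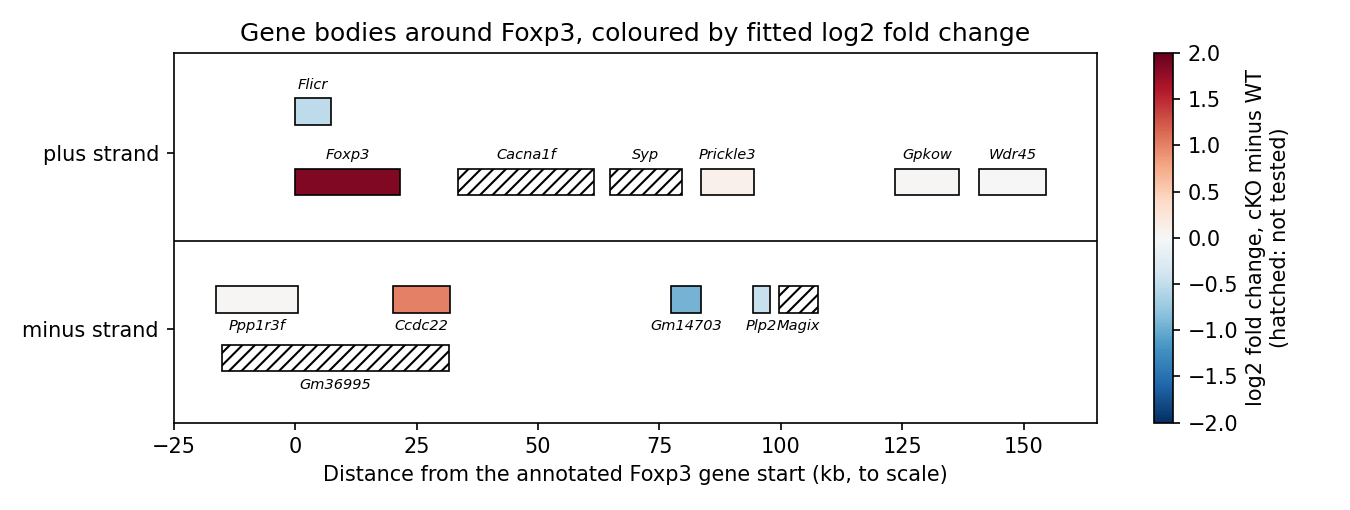
Gene bodies to scale by distance in kb from the annotated *Foxp3* gene start, plus strand above and minus strand below, filled by the fitted log2 fold change of cKO against WT, with untested genes hatched. *Foxp3* has the deepest fill at 1.86, *Ccdc22*, which overlaps its end, follows at 1.01, and *Flicr*, which overlaps its beginning, lies on the other side of 0 at -0.52.

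The promoters of *Foxp3* and of the genes that adjoin it on each side are printed because *Foxp3* differed between the genotypes while the genes it overlaps did so less or not at all. Each runs 5′ to 3′ on the strand of its gene, from 250 bases before to 50 bases after the RefSeq start (GRCm38.p6), with runs of at least 6 bases that are all A or T in capitals. They lie at chrX:7579426-7579725 (*Foxp3*, plus strand), chrX:7605371-7605670 (*Ccdc22*, minus strand) and chrX:7574232-7574531 (*Ppp1r3f*, minus strand).
Foxp3: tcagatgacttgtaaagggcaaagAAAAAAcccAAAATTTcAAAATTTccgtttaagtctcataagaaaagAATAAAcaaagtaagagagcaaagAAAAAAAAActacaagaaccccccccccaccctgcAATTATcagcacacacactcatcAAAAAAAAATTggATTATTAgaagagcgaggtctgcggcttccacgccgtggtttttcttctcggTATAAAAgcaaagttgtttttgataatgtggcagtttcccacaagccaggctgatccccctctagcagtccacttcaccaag
Ccdc22: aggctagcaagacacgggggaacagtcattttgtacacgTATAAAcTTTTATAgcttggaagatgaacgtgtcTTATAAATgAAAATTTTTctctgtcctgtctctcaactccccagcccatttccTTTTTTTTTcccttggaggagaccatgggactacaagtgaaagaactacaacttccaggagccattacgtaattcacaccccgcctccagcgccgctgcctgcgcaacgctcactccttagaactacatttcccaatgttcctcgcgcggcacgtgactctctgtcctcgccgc
Ppp1r3f: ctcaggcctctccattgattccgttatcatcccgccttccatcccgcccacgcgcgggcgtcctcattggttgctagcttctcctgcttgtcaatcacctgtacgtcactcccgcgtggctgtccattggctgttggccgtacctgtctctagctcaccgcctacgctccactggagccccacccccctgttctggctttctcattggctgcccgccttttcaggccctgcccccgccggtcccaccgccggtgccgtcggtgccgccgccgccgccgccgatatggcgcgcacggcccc

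The *Foxp3* promoter was 59.3% A or T, against 51.3% for *Ccdc22*, 33.3% for *Ppp1r3f* and a median of 47.3% over 32851 RefSeq promoters of the same length. The capitals cover 66 bases in *Foxp3*, 39 in *Ccdc22* and 0 in *Ppp1r3f*, and 3.26% of all promoters hold at least as many such bases as *Foxp3*. *Cacna1f*, which was scarcely detected, had 61. The letters TATAAA, searched on both strands, occur 1 time in the *Foxp3* window, 3 times in that of *Ccdc22* and in 13.6% of all promoters, and they fall within the runs in capitals. The RefSeq start of *Foxp3* lies 6032 bases inside the gene as GENCODE draws it. RefSeq also lists a *Foxp3* start at 7580483, whose window was 52.3% A or T with 23 bases in such runs, fewer than in *Ccdc22* and reached by 27.3% of all promoters, so the place of *Foxp3* in this comparison depends on the start that is taken. RefSeq gave a promoter for 8 of the 9 genes, all but *Plp2*.

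*Foxp3* was the only 1 of the 9 genes that differed between the genotypes past the threshold, a Benjamini-Hochberg adjusted p below 0.05 by edgeR's quasi-likelihood F test on 12403 genes. Of the 9 genes 7 had enough counts to be tested, 1 rose and 0 fell, where 4.30% of all tested genes were called, 2.35% higher and 1.95% lower. Its 4 counts, in the order WT 1, WT 2, cKO 1, cKO 2, were 926, 538, 2127 and 2573. As CPM (counts per 1000000 of the library total, adjusted by TMM), that is 141 and 120.0 CPM in the WT libraries against 404 and 545 CPM in the cKO libraries. Both cKO libraries lay above both WT libraries, and the lower cKO library was still well over the higher WT library. Means were 131 ± 14.9 CPM (SD, n = 2) and 474 ± 99.7 CPM (SD, n = 2), with a fold of 3.62 (95% interval 2.84 to 4.63) and adjusted p = 0.000447 in edgeR. The cKO libraries differed more from each other than the WT libraries did.

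*Foxp3* ranked 83 of 12403 by log2 fold change and 12 by the gain in CPM, so its change is large but not singular in these libraries. In these bulk samples, more cells with *Foxp3* RNA and more *Foxp3* RNA per cell cannot be told apart.

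**Figure D2:**
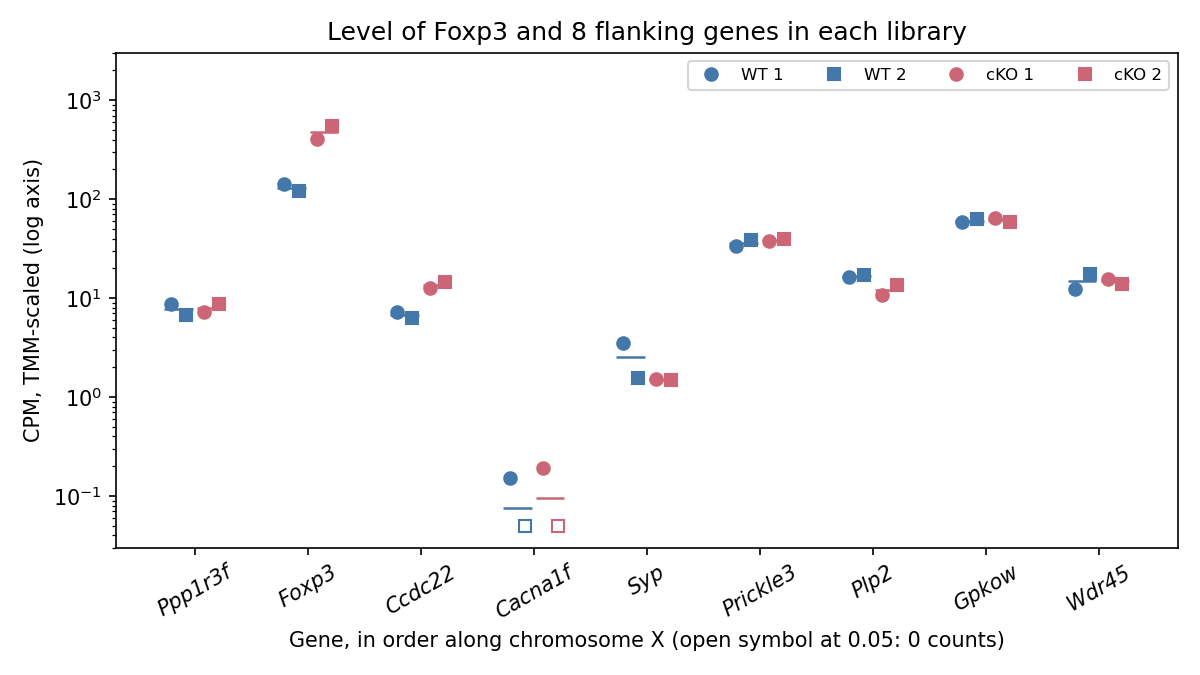
TMM-scaled CPM on a log axis for the 9 genes in their order along chromosome X, 1 symbol per library and a bar at each genotype's mean (n = 2), with 0 counts drawn as open symbols at 0.05. *Foxp3* and *Ccdc22* stand higher in both cKO libraries, *Plp2* stands lower, and the symbols of *Ppp1r3f*, *Prickle3*, *Gpkow* and *Wdr45* interleave.

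*Ccdc22* was the flanking gene with the largest difference, in the same direction as *Foxp3*. It encodes a subunit of the complex of COMMD proteins with CCDC93, which recycles membrane proteins from endosomes. Its counts were low, at 47, 28, 67 and 69 in the same order of libraries, or 7.16 and 6.25 CPM against 12.7 and 14.6 CPM. The genotypes did not overlap, as was the case for 50.3% of all tested genes. The fold was 2.02 (95% interval 1.38 to 2.94), and the adjusted p = 0.0533 in edgeR fell just short of the threshold. The call turned on the processing, since the adjusted p ran from 0.00314 to 0.328 over 12 alternatives and was under 0.05 in 4 of them. Of the 6 tested flanking genes 0 were called in edgeR and 0 in DESeq2, and at an unadjusted p under 0.05 *Ccdc22* was the 1 that passed in edgeR, as did 19.1% of all tested genes.

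The count of *Ccdc22* rests on little sequence of its own. The annotated read-through transcript *Gm36995* (7558602 to 7605381, minus strand) shares 2957 of the 3427 exonic bases of *Ccdc22*, or 86.3%, and the counting program leaves out reads that fall on more than 1 gene. That leaves 470 bases unique to *Ccdc22* if counting used strand and 253 if it did not, which is not stated. The 590 bases shared with *Foxp3* make up 17.2% of *Ccdc22* exons. *Foxp3* is the only gene on the other strand whose annotated exons overlap those of *Ccdc22*. The bases that separate 470 from 253 therefore lie under *Foxp3* exons, a larger share of the 470 than of all *Ccdc22* exons. *Ccdc22* gained 6.95 CPM while *Foxp3* gained 343 CPM, so the gain of *Ccdc22* was 2.02% of that of *Foxp3*. The part of the shared bases in the difference of *Ccdc22* was not tested. *Gm36995* itself had 2, 4, 0 and 3 counts in WT 1, WT 2, cKO 1 and cKO 2.

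The other partners in the *Ccdc22* complex did not differ past the threshold. Of the 14 that were tested 0 were called in edgeR or DESeq2 and 0 had an unadjusted p under 0.05 in edgeR, beside 4.30% and 19.1% of all tested genes, with a median log2 fold change of -0.035 beside -0.0016 for all tested genes. *Ccdc93*, the closest partner of *Ccdc22*, stood at 88.0 ± 4.58 CPM in WT and 92.7 ± 12.8 CPM in cKO (SD, n = 2), with an edgeR adjusted p = 0.815.

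On the other side of *Foxp3*, *Ppp1r3f* did not move with it. This gene, whose product brings protein phosphatase 1 to glycogen, shares its start region with the upstream first exons of *Foxp3* and *Flicr*. It was counted 57 and 30 times in WT and 38 and 41 times in cKO, or 8.68 and 6.69 CPM against 7.21 and 8.68 CPM. Both cKO libraries lay within the WT range, cKO 2 at its upper end. The fold was 1.02 (95% interval 0.66 to 1.57), with edgeR adjusted p = 0.977. *Gm36995* shares 46.9% of its exonic bases, so this count too covers only part of the gene. Of the 5 tested relatives and phosphatase 1 subunits, 0 were called in edgeR and 2 had an unadjusted p under 0.05, beside 4.30% and 19.1% of all tested genes, with 0 called in DESeq2.

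*Flicr*, an RNA gene that starts on the plus strand upstream of *Foxp3* and is known for restraining *Foxp3* expression, is not on the list of neighbours but shares 853 exonic bases with *Foxp3* on the same strand. Both genes were counted, so the annotation used held both, and reads on bases that they share in it were counted for neither. It was counted 30 and 18 times in WT and 14 and 16 times in cKO, or 4.57 and 4.02 CPM against 2.66 and 3.39 CPM. They were lower in both cKO libraries, opposite to *Foxp3*, but the log2 fold change of -0.52 (95% interval -1.34 to 0.30) did not pass the test, with adjusted p = 0.488 in edgeR. It was singled out for its place and after its values were seen.

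*Plp2* was the one tested flanking gene with a value below 0. It encodes a small membrane protein of the proteolipid type, and its 3′ exon overlaps that of *Prickle3*. Its counts were 108 and 76 in WT and 57 and 64 in cKO, or 16.5 and 17.0 CPM against 10.8 and 13.5 CPM. The WT libraries nearly coincided and both cKO libraries lay below them. The fold was 0.73 (95% interval 0.52 to 1.01), with edgeR adjusted p = 0.281, and it stayed below 1 and uncalled in all 12 alternatives.

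*Prickle3*, the partner of *Plp2* in that overlap and a relative of planar cell polarity proteins, had 222 and 174 counts in WT and 200 and 189 in cKO, or 33.8, 38.8, 37.9 and 40.0 CPM in the same order. WT 2 lay between the cKO libraries. The fold was 1.08 (95% interval 0.86 to 1.34), with edgeR adjusted p = 0.736.

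*Gpkow* was the most deeply counted flanking gene and gave the narrowest limits. Its product is an RNA-binding protein of the spliceosome. It had 387 and 280 counts in WT and 337 and 279 in cKO, or 59.0, 62.5, 63.9 and 59.0 CPM, and the genotypes overlapped. The fold was 1.01 (95% interval 0.85 to 1.22), with edgeR adjusted p = 0.948.

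*Wdr45*, which encodes a phosphoinositide-binding protein of autophagosome formation, had 82 and 78 counts in WT and 83 and 65 in cKO, or 12.5, 17.4, 15.7 and 13.8 CPM. Both cKO libraries lay between the WT libraries. The log2 fold change was 0.0031 (95% interval of the fold 0.70 to 1.43), with edgeR adjusted p = 0.998. Its relative *Wdr45b* was at 34.8 ± 1.22 CPM in WT and 33.6 ± 0.235 CPM in cKO (SD, n = 2), with edgeR adjusted p = 0.884, and of the 5 tested genes of its list 0 were called in edgeR and 1 had an unadjusted p under 0.05, beside 4.30% and 19.1% of all tested genes, with 0 called in DESeq2.

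The remaining genes are best known from other tissues and were too low to test. *Cacna1f*, a calcium channel subunit of the retina, had 1 count in WT 1 and in cKO 1 and 0 in the other libraries, at or under the floor of 3 counts in all 4. Over both libraries of a genotype that is 0.0905 CPM in WT (exact Poisson 95% interval 0.0023 to 0.504) and 0.100 CPM in cKO (0.0025 to 0.557). *Syp*, the synaptic vesicle protein synaptophysin, had 23 and 7 counts in WT and 8 and 7 in cKO. WT 1 stood apart from the other 3 libraries, which were alike. Fitted without the low-count filter its log2 fold change was -0.81 (95% interval -1.82 to 0.20), with edgeR adjusted p = 0.588. These intervals cover counting error, and those of the fit also the spread of libraries.

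**Figure D3:**
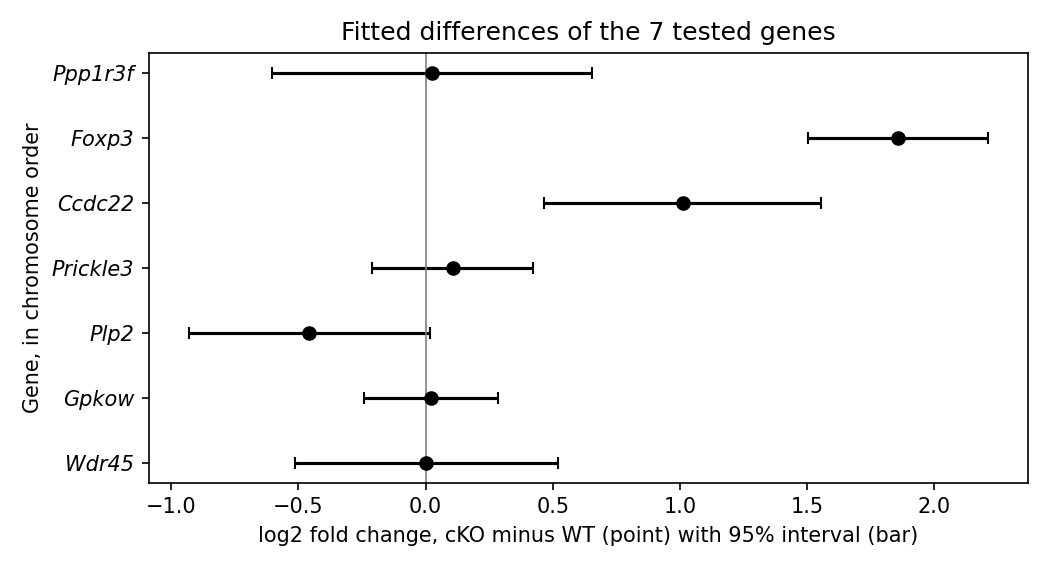
Fitted log2 fold change of cKO minus WT (point) with its 95% interval (bar) for the 7 tested genes, in chromosome order from top to bottom. The interval of *Foxp3*, a fold of 2.84 to 4.63, lies above those of *Ppp1r3f*, *Prickle3*, *Plp2*, *Gpkow* and *Wdr45*, and overlaps the upper end of that of *Ccdc22*, a fold of 1.38 to 2.94.

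The intervals set limits on what the flanking genes could have done. For *Ppp1r3f*, *Prickle3*, *Plp2*, *Gpkow* and *Wdr45* the upper limit of the fold was at most 1.57, while the lower limit for *Foxp3* was 2.84. Ratios within a library do not depend on any scaling between libraries. For each count of *Ppp1r3f* there were 16.2 and 17.9 counts of *Foxp3* in WT, and 56.0 and 62.8 in cKO. Against *Gpkow* the ratio was 2.39 and 1.92 in WT and 6.31 and 9.22 in cKO. Against *Ccdc22* it was 19.7 and 19.2 in WT and 31.7 and 37.3 in cKO, so *Foxp3* gained on its overlapping neighbour as well. On the log2 scale the mean ratio was higher in cKO by 0.82 for *Ccdc22*, by 1.74 for *Prickle3*, by 1.80 for *Ppp1r3f*, by 1.83 for *Gpkow*, by 1.85 for *Wdr45* and by 2.31 for *Plp2*. The exact two-sided permutation test gave p = 0.333 for each of these 6 ratios, the smallest it allows for 2 libraries against 2, so this test cannot reach 0.05 here.

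**Figure D4:**
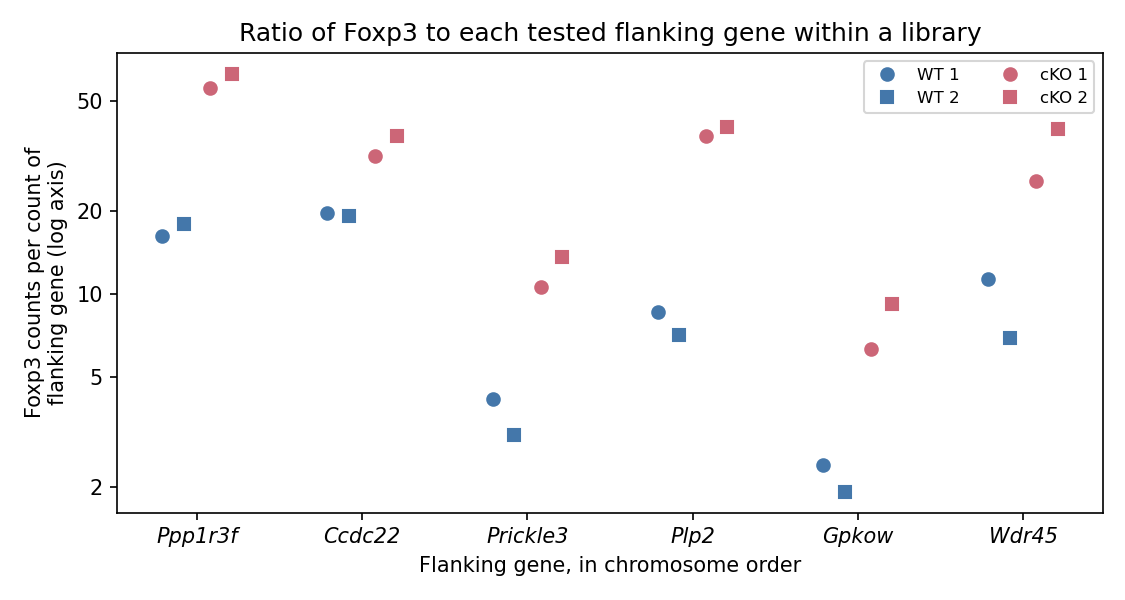
Counts of *Foxp3* per count of each tested flanking gene within a library, on a log axis, 1 symbol per library. In all 6 columns both cKO libraries lie above both WT libraries, from the narrowest gap at *Ccdc22* (19.7 against 31.7) to the widest at *Plp2* (8.57 against 37.3). All 6 columns share the same *Foxp3* counts, which differ between the genotypes, so they are not separate observations.

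Summed over the 8 flanking genes, the level stayed between 141 and 151 CPM in the 4 libraries. *Gpkow* and *Prickle3* made up most of this sum, with WT means of 60.7 and 36.3 CPM. Within it the mean difference of cKO minus WT was 6.95 CPM for *Ccdc22* and -4.52 CPM for *Plp2*. A level sum therefore does not show that each gene stayed level. Within the 9 genes *Foxp3* took 50.0% and 44.4% of counts in WT 1 and WT 2, and 72.9% and 78.3% in cKO 1 and cKO 2.

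The levels of the genes can be compared only per length. In CPM per kb of annotated exon, *Foxp3* led in WT at 28.5, ahead of *Gpkow* at 16.2, *Plp2* at 12.5, *Prickle3* at 7.41, *Wdr45* at 4.52, *Ccdc22* at 1.96, *Ppp1r3f* at 1.49, *Syp* at 0.486 and *Cacna1f* at 0.0084. In cKO *Foxp3* was at 104 and the order of the means was kept, while *Ccdc22*, at 3.98, came close to *Wdr45*, at 4.46. *Ccdc22* and *Wdr45* did not overlap in any library of WT, at up to 2.09 and from 3.77 CPM per kb, and were 3.71 and 4.26 against 4.76 and 4.16 CPM per kb in cKO 1 and cKO 2. *Ccdc22* and *Ppp1r3f* are adjacent in the order and differed by little more than their spread in WT. Divided by the bases that no same-strand gene shares, *Ccdc22* would stand at 14.3 CPM per kb in WT, and at 26.5 CPM per kb if counting ignored strand, so its place in this order is uncertain.

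Beyond the 8 flanking genes, 70 further genes of the tables lie within 1 Mb of *Foxp3*, and 25 of them were tested. Of these, 0 rose and 1 fell in edgeR, a share close to the 4.30% called among all tested genes, with a median log2 fold change of -0.014. The gene that fell was *Pim2*, a survival kinase of lymphocytes, with 442 and 396 counts in WT and 275 and 214 in cKO. Its log2 fold change was -0.67 and its adjusted p = 0.04997 in edgeR, at the very edge of the threshold, and it was not called with scaling factors from autosomal genes or without WT 2. *Tfe3* had the highest value of the 25, with 0.43 and adjusted p = 0.155 in edgeR, and was named after its values were seen. The nearest tested gene to the left of the block, *2010204K13Rik*, had a log2 fold change of -0.31 (adjusted p = 0.770), and the nearest to the right, *Praf2*, had 0.23 (adjusted p = 0.751), both in edgeR.

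**Figure D5:**
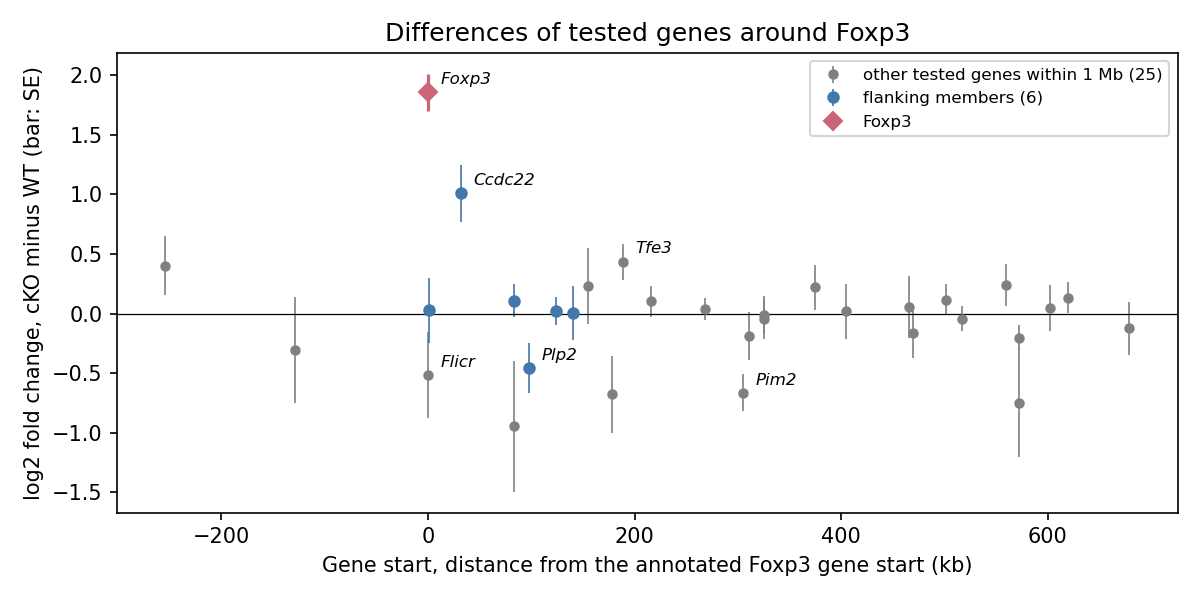
Fitted log2 fold change of cKO minus WT (bars: SE) by distance in kb of each gene's start from the annotated *Foxp3* gene start, for *Foxp3*, the 6 tested flanking genes and the 25 other tested genes within 1 Mb. Only *Foxp3* and *Ccdc22* stand above 0.5, and the lowest value is -0.94, for *Gm14703*, which was not called.

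Sex-linked transcripts moved with the labels, and the block lies on X. *Xist*, the RNA that silences an X chromosome, had 5447 and 4235 counts in WT and 9 and 6 in cKO. The Y-linked gene *Ddx3y* had 0 and 0 counts in WT against 525 and 597 in cKO, and *Eif2s3y*, *Kdm5d* and *Uty* were called with it in edgeR, all 4 of that list. In a list of *Xist* and genes known to escape X inactivation, 3 of 11 fell in edgeR, *Xist* among them, beside 1.95% of all tested genes. DESeq2 called 2 of the 11 lower. In edgeR the other 8 did not pass, and all 11 had values below 0, with a median log2 fold change of -0.43. In log2 units *Kdm6a*, an escaping histone demethylase, fell by 0.74 (adjusted p = 0.00626 in edgeR) and *Kdm5c*, another, fell by 0.43 (adjusted p = 0.0435 in edgeR). The flanking genes had a median of 0.02, with values on both sides of 0, and all 370 tested X genes a median of 0.0026. Of the X genes 10 were called higher and 14 lower in edgeR, beside 2.35% and 1.95% of all tested genes. Of 15 tested X-linked immune genes, 1 rose (*Cd40lg*, by 0.58, edgeR adjusted p = 0.0232) and 1 fell (*Pim2*). Both WT libraries thus carried the RNA pattern of females, and both cKO libraries that of males. Genotype label and sex cannot be told apart in any of these libraries.

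The count of the targeted gene does not separate the labels. *Satb1* had 5677 and 4390 counts in WT and 4958 and 3986 in cKO, with edgeR adjusted p = 0.877, and a count over the whole gene need not fall where only its floxed part is deleted. It therefore does not check the labels, and the directions here are those of the labels. Library totals on genes ran from 4495902 to 6555699 counts, and the counting program assigned between 59.4% and 64.5% of uniquely placed reads to no feature. If counting used strand, which is not stated, these include any reads antisense to exons. Markers of T cells were abundant in every library (*Cd4* from 1177 to 1273 CPM), and in their list of 9 only *Zbtb7b*, the gene of ThPOK itself, was called, higher in cKO by 0.66 (edgeR adjusted p = 0.0117), beside 2.35% of all tested genes called higher.

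The summed levels of markers of other cells moved with the labels. The 10 B cell markers summed to 39.8 and 48.4 CPM in WT and 198 and 78.3 CPM in cKO 1 and cKO 2, and the 10 myeloid markers to 34.6 and 42.8 CPM against 110.0 and 66.0 CPM. In both cKO libraries 7 of the 10 B cell and 6 of the 10 myeloid markers were higher than in both WT libraries, tested or not, as were 24.8% of all tested genes, and none was at 0 in all libraries. Of the tested ones, 2 of 5 B cell genes (*Cd74* and *Pax5*) and 4 of 9 myeloid genes (*Lyz2*, *S100a9*, *Cybb* and *Ltf*) rose in edgeR, beside 2.35% of all tested genes. DESeq2 called 1 of the 5 and 3 of the 9 higher, beside 234 of 12403 tested genes. The myeloid genes *Itgam* (log2 fold change -0.85) and *Cd68* (-0.29) were below 0 and uncalled in edgeR. In cKO 2, *Cd79b* and *Ebf1* of the B cell list lay below both WT libraries. The 5 NK cell markers summed to 108 and 95.7 CPM against 48.8 and 40.8 CPM, with 2 of 4 tested (*Eomes* and *Prf1*) called lower in edgeR, and the CD8 markers to 47.5 and 58.2 CPM against 34.1 and 26.7 CPM, with 1 of 2 tested (*Cd8b1*) called lower, beside 1.95% of all tested genes. Without cKO 1, the library with the highest B cell and myeloid sums, the log2 fold change of *Foxp3* was 2.05, and without cKO 2 it was 1.62. The part of these cells in the values of *Foxp3* and the flanking genes was not tested.

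Of 40 genes known to act on *Foxp3* transcription, all tested, 0 rose and 1 fell in edgeR, 2 rose and 2 fell in DESeq2, and 13 had an unadjusted p under 0.05 in edgeR, with a median log2 fold change of 0.084. Over all genes tested in edgeR 4.30% were called and 19.1% had such an unadjusted p, and DESeq2 called 427 of 12403. The gene that fell was *Uhrf1*, which maintains DNA methylation in dividing cells, at 39.8 ± 2.70 CPM in WT and 19.4 ± 6.73 CPM in cKO (SD, n = 2, edgeR adjusted p = 0.0308). *Runx1* and *Cbfb*, which bind together at the locus, had log2 fold changes of 0.02 (adjusted p = 0.939) and 0.10 (adjusted p = 0.636) in edgeR, and *Stat5b*, which carries the IL-2 signal to it, had 0.24 (adjusted p = 0.299).

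Of 28 genes that are higher in Treg cells, 6 rose and 1 fell in edgeR, beside 2.35% and 1.95% of all tested genes, with a median log2 fold change of 0.38. Of those that rose in edgeR the largest values were *Cd83* at 0.97, *Nt5e* at 0.87 and *Tnfrsf4* at 0.75, while *Itgae*, an integrin chain, fell by 0.92 (edgeR adjusted p from 0.0105 to 0.0295 for these 4). *Ctla4* rose by 0.58 (edgeR adjusted p = 0.0390), and *Il2ra* at 0.84 and *Ikzf4* at 0.72 did not pass in edgeR, with adjusted p of 0.0509 and 0.0722. *Foxp3* at 1.86 was above the highest value of the list, 1.60 for *Ebi3*, which did not pass in edgeR (adjusted p = 0.102) and was named after its values were seen. Of the 8 tested genes that FoxP3 represses or that are lower in Treg cells, *Il7r* and *Cd40lg* rose and *Dapl1* fell by 2.39 (edgeR adjusted p = 4.76e-05), beside 2.35% and 1.95% of all tested genes. DESeq2 called 1 of the 8 higher and 1 lower. An unadjusted p under 0.05 in edgeR was reached by 6 of the 8, beside 19.1% of all tested genes. Values lay above 0 for 4 and below 0 for 4. The members of these lists come from general knowledge of Treg cells, with earlier results of these data known.

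The genes closest to *Foxp3* in pattern over the 4 libraries were *Gm4742*, *Gprasp2*, *Sema6d*, *Hsph1* and *Npas2*, by the Euclidean distance of centred log2(CPM + 0.5) values, from 0.156 to 0.264 among 12402 genes. *Gprasp2* lies on X and the others on chromosomes 14, 2, 5 and 1. *Hsph1*, a heat shock protein, was the only one of these at a similar level, with 98.4 and 85.7 CPM in WT and 297 and 319 CPM in cKO. *Gm4742* had between 2 and 16 counts per library and *Sema6d* between 1 and 13, so their places rest on few counts. None of the flanking genes was among the 5.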

How the data were processed

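RNA was sequenced from sorted splenic CD4+ T cells, 2 libraries labelled WT and 2 labelled cKO. The authors aligned 50 bp reads to mm10 with HISAT2 2.1.0 and deposited raw HTSeq read counts per gene symbol (version 0.11.1 in the submitters' processing notes). The annotation and strand setting are not given in the sources used here. HTSeq summary lines were left out. Reads on more than 1 gene are left uncounted by HTSeq, which lowers overlapping genes.

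Positions and exonic overlaps came from GENCODE M21 (GRCm38), which matched 53365 of 55367 symbols, and promoters from RefSeq GRCm38.p6. Counts were analysed in R 4.3.3 with edgeR 4.0.16: filterByExpr, TMM (factors 0.981 to 1.02), and the quasi-likelihood F test on genotype label, two-sided, with Benjamini-Hochberg adjustment over 12403 genes, called at an adjusted p under 0.05. The SE is the absolute log2 fold change over the square root of F, and 95% intervals use moderated degrees of freedom. CPM uses total gene counts times the TMM factor. Leaving out a library leaves 1 in its genotype, which is assumed to vary like the other. Fits were tested on simulated data. DESeq2 1.42.0 was an alternative. Python 3.11.15 and matplotlib 3.10.9 drew the plots.

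Totals were 6555699, 4495902, 5372419 and 4628467 counts. A count of 3, the floor, was 0.458 to 0.667 CPM. Without molecular identifiers reads cannot be taken as separate molecules, so intervals cover counting error only, or with the fit also the spread of libraries. Genes of the block and all lists were chosen with earlier results of these data known. Named were the 9 genes, called list genes (at most the 4 largest per list) and 11 fixed others, called genes within 1 Mb and the nearest tested gene on each side, and the 5 genes most like *Foxp3*. Other genes, among them *Flicr*, *Tfe3*, *Ebi3*, *Gm14703* and uncalled cell markers, were named outside this rule, some after their values were seen.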

Additional observations from a re-analysis of the deposited data

How the results depend on the processing

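*Foxp3* kept its direction and its call in all 12 alternatives, with log2 fold changes from 1.62 to 2.05 (both with 1 library removed) and a highest adjusted p of 0.00273. The number of genes called over the whole table was 533, and it was 1367 without the low-count filter and from 180 (without WT 2) to 1790 (without cKO 2) over removal of each library. Of the 533, 163 were called without WT 2. Why the number shifted so was not tested. The flanking genes called numbered 0, against 1 without the low-count filter and from 0 to 1 on removing single libraries, each time *Ccdc22* (edgeR adjusted p 0.00314 without the filter, 0.0152 without cKO 1 and 0.0297 without cKO 2). Its adjusted p was 0.184 in DESeq2, 0.108 without WT 1 and 0.328 without WT 2, and its log2 fold change ran from 0.91 to 1.13. Genes called within 1 Mb numbered 1, against 0 with TMM factors from autosomal genes and from 0 to 2 on removing single libraries.

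Replicate numbers name libraries only, and the correlation of deviations between libraries that share a number was 0.0643 over genes. A fit that adds the replicate block called 1165 genes, 1 flanking gene (*Ccdc22*, edgeR adjusted p = 0.0217) among them, and *Foxp3* stayed called.

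Values near 0 changed sign. *Wdr45* was -0.0015 without the low-count filter, -0.044 after thinning to the smallest total, -0.0031 in DESeq2 and from -0.23 to 0.24 on removal of single libraries. *Gpkow* was -0.0094 after thinning and from -0.039 to 0.080 on such removal, and *Ppp1r3f* lay between -0.13 and 0.25. None of these was called. No scaling moved the median of all genes by more than 0.1. After thinning the adjusted p of *Ccdc22* in edgeR was 0.0577. *Syp* and *Cacna1f* did not pass the low-count filter of the main fit.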
